A study of Mus musculus with 8 samples.

Results

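Of 10 genes of the NF-kappaB and Toll-like receptor pathway, taken from a list of names, 9 were measured in fibroblasts of the dermis from mice fed a high fat diet (HFD) and mice fed a normal diet (ND). They are the receptors Tlr2, Tlr3 and Tlr4, the adaptor Myd88, the transcription factor genes Nfkb2, Rela and Relb, and the inhibitors Nfkbia and Tnfaip3. Nfkb1, the remaining gene of the list, was not analysed here, as no probe set used here names it. The 9 genes stand among 17097 genes tested. The mice were female, began the HFD or the control diet at 2 months of age, ate it for 6 months and were killed on one day. Their dermis was digested with collagenase, and cells positive for Pdgfra and CD34 and negative for CD45, CD117, CD24, CD31 and EpCam were sorted, 10000 per sample. The RNA of each sample went through 20 amplification cycles before it was labelled and put on an array. There were 4 HFD and 4 ND arrays, of which the labels exclude ND 4 by quality control, so HFD 1 to 4 were compared with ND 1 to 3. For strain, diet composition and body weight, nothing is given in the sources used here. Each array was taken as 1 mouse, since the design states 4 animals per diet, and with so few arrays every value has limited precision.

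Toll-like receptors recognise microbial molecules and products of damaged cells, and pass the signal through adaptors such as MyD88 and the kinases of the IRAK and TAK1 complexes to the IkappaB kinases. IkappaB proteins hold NF-kappaB dimers in the cytoplasm until these kinases mark them for degradation, and the freed dimers then switch on genes for chemokines, cytokines and survival. Among the targets are the inhibitors themselves, IkappaB alpha (Nfkbia) and the ubiquitin-editing enzyme A20 (Tnfaip3), which end the response. Dermal fibroblasts carry several of the receptors and release chemokines when they are engaged. Much of this control acts on proteins, which arrays of RNA do not measure.

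The promoters are shown first because the genes of this pathway include targets of the factor they encode. Each line gives the 250 bases before the RefSeq transcription start (GRCm38.p6), read on the strand of the gene. Matches to the 10-base kappaB consensus on either strand that lie wholly within these bases are in capitals. A further Tlr2 match, which begins 8 bases before the start and runs past it, is not in capitals. The windows are at chr12:55492648-55492897 (minus strand) for Nfkbia, chr10:19015411-19015660 (minus strand) for Tnfaip3, chr19:46304487-46304736 (plus strand) for the first of 3 starts of Nfkb2, chr3:83841609-83841858 (minus strand) for Tlr2 and chr8:45410381-45410630 (minus strand) for Tlr3.
Nfkbia: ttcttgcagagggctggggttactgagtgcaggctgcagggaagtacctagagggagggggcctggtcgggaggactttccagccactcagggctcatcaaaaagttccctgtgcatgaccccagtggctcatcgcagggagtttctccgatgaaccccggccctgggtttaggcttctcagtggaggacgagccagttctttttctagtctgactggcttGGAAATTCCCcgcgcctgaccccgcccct
Tnfaip3: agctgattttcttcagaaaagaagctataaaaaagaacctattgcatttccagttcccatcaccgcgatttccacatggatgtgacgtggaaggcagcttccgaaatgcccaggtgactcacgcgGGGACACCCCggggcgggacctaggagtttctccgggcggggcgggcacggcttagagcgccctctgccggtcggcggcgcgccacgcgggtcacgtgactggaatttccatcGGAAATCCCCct
Nfkb2: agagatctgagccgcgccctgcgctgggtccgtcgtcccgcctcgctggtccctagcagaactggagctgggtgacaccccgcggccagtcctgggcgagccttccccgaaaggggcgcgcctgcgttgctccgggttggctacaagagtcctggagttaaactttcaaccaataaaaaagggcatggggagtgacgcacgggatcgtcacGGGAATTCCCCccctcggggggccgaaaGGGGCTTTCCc
Tlr2: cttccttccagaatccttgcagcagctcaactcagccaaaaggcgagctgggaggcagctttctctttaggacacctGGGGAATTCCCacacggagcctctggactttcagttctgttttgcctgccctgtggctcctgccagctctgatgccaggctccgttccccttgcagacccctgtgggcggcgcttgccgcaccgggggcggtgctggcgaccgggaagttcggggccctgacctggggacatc
Tlr3: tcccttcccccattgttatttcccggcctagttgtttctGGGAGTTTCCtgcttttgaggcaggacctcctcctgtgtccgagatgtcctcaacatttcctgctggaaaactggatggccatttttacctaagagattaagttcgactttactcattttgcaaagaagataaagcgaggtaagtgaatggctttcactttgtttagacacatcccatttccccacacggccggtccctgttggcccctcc

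In windows of 300 bases, which also take in 50 bases after the start, 5 of the 7 members with a RefSeq window (Nfkb2, Nfkbia, Tnfaip3, Tlr2 and Tlr3) held a match, and Rela and Myd88 held none. By window the count was 7 of 10, beside 2779 of 32851 windows over all genes, or 8.46%. The member windows are not independent, since Nfkb2 has 3 of them and 2 of these overlap each other. The Nfkbia match, GGAAATTCCC, begins 29 bases before the start. Tnfaip3 holds GGAAATCCCC at 12 bases and GGGACACCCC at 125 bases before its upstream start, and no match at its other start. In Nfkb2 overlapping matches give one run from 39 bases before the start, and a further match, GGGGCTTTCC, lies at 11 bases. A match is a string of letters in the window and was not tested for binding. Nfkb1, Relb and Tlr4 were not searched.

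None of the 9 members passed the threshold between the diets (0 higher and 0 lower in HFD, limma, adjusted p under 0.05), where 5.35% of all genes passed. At an unadjusted p under 0.05 there were 3 members, all higher in HFD (Tnfaip3, Tlr3 and Rela), where 22.1% of all genes lay under that p and 12.3% did so with a higher value in HFD. At an adjusted p under 0.1 there were 2, Rela and Tlr3, beside 11.4% of all genes. The log2 difference, HFD minus ND, was positive for 7 members and negative for Nfkbia and Myd88, with a median of 0.083 over the 9 and 0.017 over all genes, of which 56% were positive. HFD and ND arrays did not overlap for 1 member, Rela, whose HFD arrays all lay above ND, where 17.9% of all genes did not overlap and 9.95% lay above ND. The largest difference was 0.72, in Tnfaip3. All 9 main probe sets lay above the median gene of 6.77 in their mean log2 value over the 7 arrays. Signals of different probe sets are not comparable as amounts, so the members are not ranked by level. In sorted bulk cells, fewer cells of one type and less RNA per cell cannot be told apart.

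**Figure D1:**
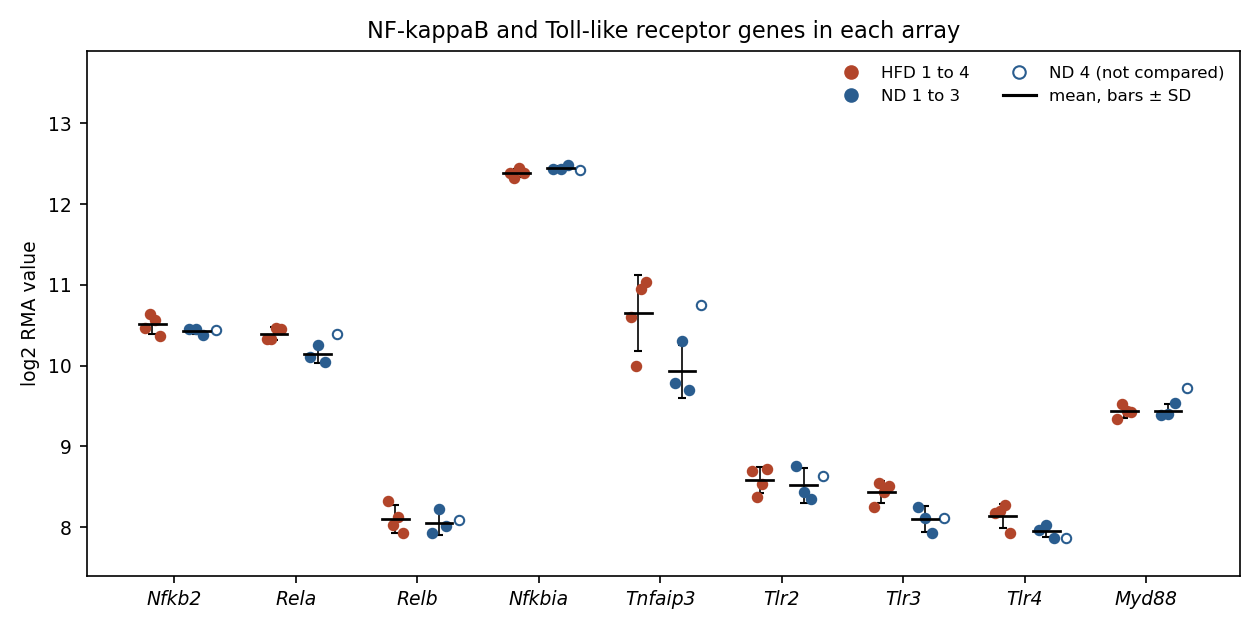
Log2 RMA value (vertical axis) of each member's main probe set in every array, HFD left of ND for each gene, with the mean as a line and the SD as bars. HFD and ND overlap for all members except Rela, and Tnfaip3 has the widest spread within each diet. ND 4, which was not compared, is drawn open.

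Among the receptors Tlr3, which recognises double-stranded RNA in endosomes, had the smallest p of the members. Its log2 values were 8.25, 8.55, 8.43 and 8.51 in HFD 1 to 4, against 8.25, 8.11 and 7.93 in ND 1 to 3. HFD 1 equalled the highest ND array, and the other HFD arrays lay above all of ND. The means were 8.43 ± 0.13 in HFD (SD, n = 4) and 8.10 ± 0.16 in ND (SD, n = 3), a log2 difference of 0.34 (SE 0.11, 1.26-fold, 95% interval 0.10 to 0.58, adjusted p = 0.0967). A second Tlr3 probe set was dim, at 4.68 in HFD and 4.66 in ND, and differed by 0.015 (SE 0.10, unadjusted p = 0.884). Without ND 3 the Tlr3 difference was 0.26 (adjusted p = 0.336) and without HFD 1 it was 0.40 (adjusted p = 0.0576).

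Of the named genes measured, Aldh2, Zbtb14 and Lonp1 had array patterns most like that of Tlr3, by the root mean square difference of their values over the 7 arrays after each gene was centred on its mean. That difference was 0.025 for Aldh2 and 0.031 for each of Zbtb14 and Lonp1. As these genes were chosen for that likeness, diet differences near that of Tlr3 follow from the choice. A link with Tlr3 was not tested. Aldh2, a mitochondrial aldehyde dehydrogenase, was 0.36 higher in HFD (adjusted p = 0.0476), while Zbtb14 differed by 0.31 (adjusted p = 0.126) and the mitochondrial protease gene Lonp1 by 0.32 (adjusted p = 0.0925). The dimmer probe sets of Aldh2 differed by −0.028 and −0.085, and those of Zbtb14 by 0.15 and −0.25.

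Tlr4, the receptor for bacterial lipopolysaccharide, had log2 values of 8.17, 8.20, 8.27 and 7.93 in HFD and 7.97, 8.03 and 7.87 in ND. The 3 HFD arrays HFD 1, 2 and 3 were above all of ND, and HFD 4 lay inside the ND range. The difference was 0.19 (SE 0.10, 95% interval −0.04 to 0.41, adjusted p = 0.325). The second Tlr4 probe set, with means of 6.09 in HFD and 5.97 in ND, gave 0.12 (SE 0.11, unadjusted p = 0.293), again with HFD 4 lowest. Cd14 and Ly96, which serve Tlr4 as co-receptors and were picked once their values were known, differed by −0.023 and −0.046.

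Tlr2, which recognises bacterial lipoproteins, stood at 8.70, 8.38, 8.54 and 8.72 in HFD and 8.76, 8.44 and 8.35 in ND. The groups interleaved, and ND 1 was the highest of the 7 arrays. The difference was 0.068 (SE 0.12, 95% interval −0.21 to 0.34, adjusted p = 0.81). Myd88, the adaptor of all Toll-like receptors other than Tlr3, also interleaved, at 9.34, 9.53, 9.44 and 9.43 in HFD and 9.39, 9.40 and 9.54 in ND. Its difference was −0.0083 (SE 0.08), with a 95% interval of −0.20 to 0.18 and an adjusted p = 0.971.

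Among the transcription factor genes, Rela, which encodes the transactivating subunit p65, was the member whose diets did not overlap. Its values were 10.33, 10.33, 10.47 and 10.46 in HFD, against 10.11, 10.26 and 10.05 in ND. The highest ND array, ND 2, lay just below HFD 1 and HFD 2, the lowest HFD arrays. The means were 10.40 ± 0.08 in HFD (SD, n = 4) and 10.14 ± 0.11 in ND (SD, n = 3), a log2 difference of 0.26 (SE 0.08, 1.20-fold, 95% interval 0.07 to 0.44, adjusted p = 0.0973). The excluded ND 4 was at 10.39, inside the HFD range, and with it the difference was 0.20 (adjusted p = 0.311).

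Nfkb2 encodes p100, which is cut to p52 in the non-canonical pathway, and Relb encodes the partner of p52. Nfkb2 was at 10.47, 10.64, 10.57 and 10.37 in HFD and at 10.45, 10.46 and 10.38 in ND, a difference of 0.083 (SE 0.08, 95% interval −0.10 to 0.27, adjusted p = 0.627). Its HFD arrays spanned the whole ND range. Relb was at 8.33, 8.03, 8.13 and 7.93 in HFD and 7.93, 8.23 and 8.01 in ND, a difference of 0.048 (SE 0.12, 95% interval −0.21 to 0.31, adjusted p = 0.861). HFD 1 gave the highest Relb value, and without it the difference was −0.027.

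Nfkbia, the first of the inhibitors and a target of NF-kappaB, was at 12.38, 12.33, 12.45 and 12.38 in HFD and at 12.44, 12.43 and 12.48 in ND. HFD 3 lay inside the ND range and the other HFD arrays below it, and the spread within each diet was the smallest of the members. The means were 12.39 ± 0.05 in HFD (SD, n = 4) and 12.45 ± 0.03 in ND (SD, n = 3), a difference of −0.065 (SE 0.05, 95% interval −0.18 to 0.05, adjusted p = 0.523).

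Tnfaip3, which removes ubiquitin chains from proteins of the receptor complexes, was at 10.60, 10, 10.95 and 11.04 in HFD, against 9.78, 10.31 and 9.70 in ND. The diets overlapped through HFD 2, which was below ND 2, while the other HFD arrays were above all of ND. The means were 10.65 ± 0.47 in HFD (SD, n = 4) and 9.93 ± 0.33 in ND (SD, n = 3), a difference of 0.72 (SE 0.23, 1.64-fold, 95% interval 0.20 to 1.24, adjusted p = 0.102). The second Tnfaip3 probe set was dimmer, at 8.34, 7.52, 8.50 and 8.61 in HFD and 7.67, 8.33 and 7.88 in ND. HFD 4, 3 and 1 and then ND 2 were again the highest, in the same order as in the brighter probe set, while HFD 2 was the lowest of all. It gave a difference of 0.28 (SE 0.25, unadjusted p = 0.279), smaller than that of the brighter probe set. Without HFD 2 the brighter probe set differed by 0.93 and passed (adjusted p = 0.0479). With ND 4, which was at 10.75, the difference was 0.51 (adjusted p = 0.36).

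**Figure D2:**
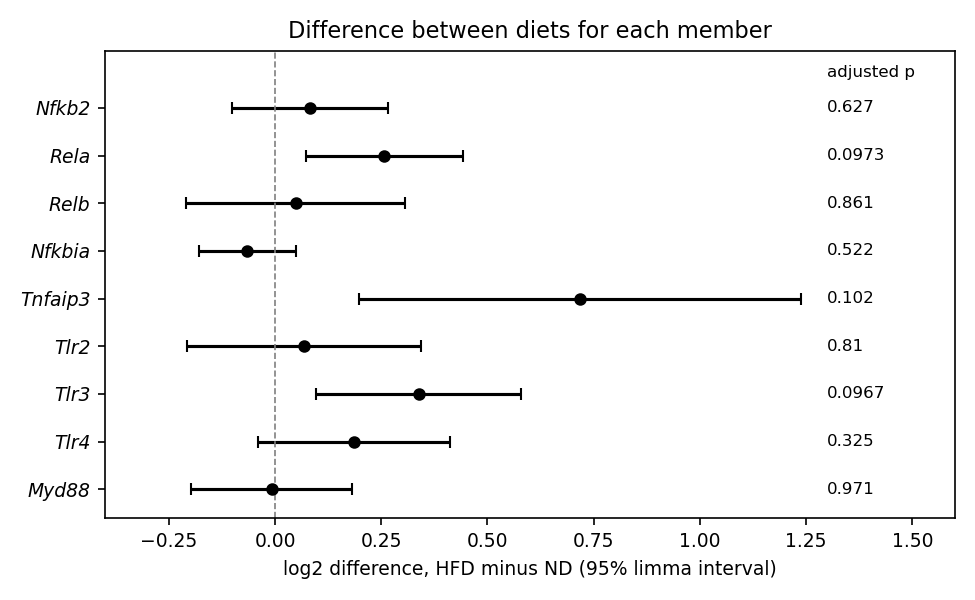
Log2 difference, HFD minus ND (horizontal axis), of each member with its 95% interval from limma, and the adjusted p at the right. The intervals of Tnfaip3, Tlr3 and Rela lie above 0, and no adjusted p is under 0.05.

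**Figure D3:**
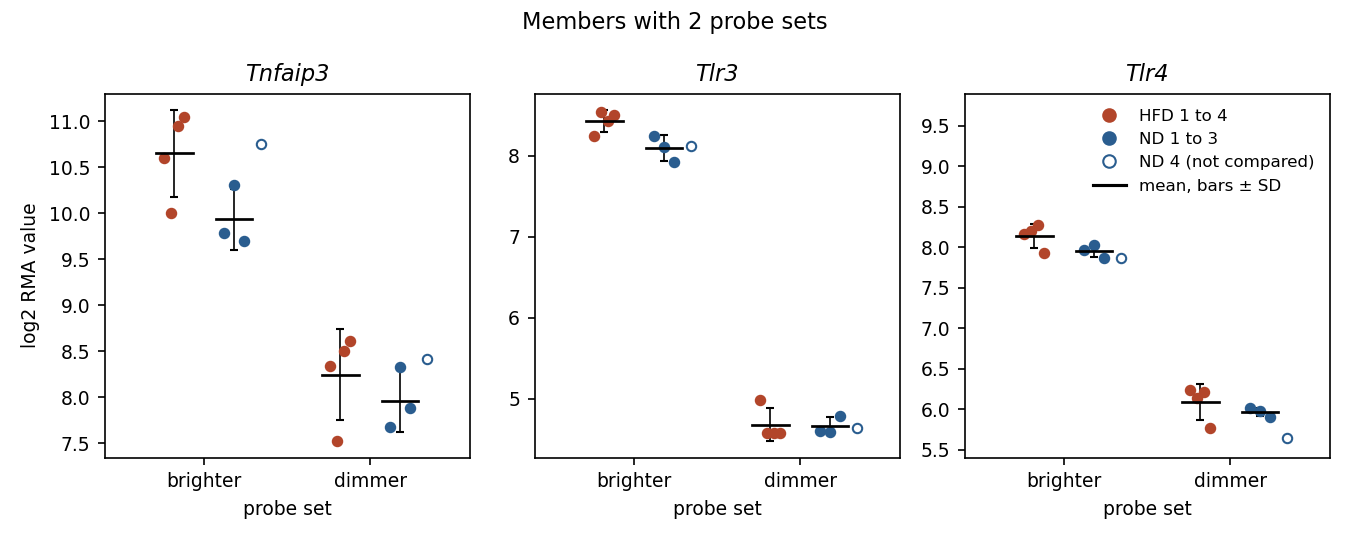
Log2 RMA value (vertical axis) in every array for the brighter and the dimmer probe set of Tnfaip3, Tlr3 and Tlr4, HFD left of ND, with the mean as a line and the SD as bars. The difference of 0.34 in the brighter Tlr3 probe set is 0.015 in the dimmer one, and in Tnfaip3 it is 0.72 and 0.28.

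The rest of the pathway was described by lists of 130 further genes, of which 119 were measured. In HFD, 7 of these rose and 4 fell (limma, adjusted p under 0.05), or 9.24%, where 2.62% of all genes rose and 2.73% fell. The median difference of the 119 was 0.01, and 62 were positive. The count depended on single arrays, with 0 genes past the threshold without HFD 3, without HFD 4 or without ND 3, and 3 without HFD 2. It was also 0 with ND 4 included and 4 when the probe sets of a gene were averaged. The count over all genes fell in the same settings. From 914 it became 6 without HFD 3, 9 without HFD 4, 11 without ND 3 and 212 without HFD 2. With ND 4 included it was 6, and with the probe sets averaged it was 400.

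Of the 11 calls, 4 were among the adaptors and kinases between receptor and IKK, with 3 of 14 measured genes lower, 1 higher and 10 not past the threshold. Irak3, a kinase-dead IRAK that restrains Toll-like receptor signals, was at 9.60, 9.92, 9.85 and 9.79 in HFD, against 10.34, 10.03 and 10.52 in ND. All HFD arrays lay below ND, and the log2 value of Irak3 fell by 0.51 (SE 0.12, adjusted p = 0.0442). Its other probe set differed by −0.68 (SE 0.17).

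Traf6, the ubiquitin ligase that activates TAK1, was at 8.73, 8.72, 8.53 and 8.54 in HFD, against 9.01, 8.97 and 9.26 in ND, and fell by 0.45 (SE 0.10, adjusted p = 0.039). The dimmer Traf6 probe sets differed by −0.090 and 0.15. Peli1, a ubiquitin ligase of the IRAK complex, fell by 0.49 (SE 0.12, adjusted p = 0.047), with −0.37, −0.10 and −0.014 in its 3 dimmer probe sets. Tollip, which binds IRAK1 and dampens its activity, rose by 0.33 (SE 0.08, adjusted p = 0.043), with arrays between 9.33 and 9.47 in HFD and between 9.01 and 9.08 in ND, but its dimmer probe set differed by 0.0067. The fall of Irak3 was thus seen in both of its probe sets. For Traf6, Peli1 and Tollip the dimmer probe sets gave smaller differences, of opposite sign in the dimmest of Traf6. With the mean of probe sets, Irak3 differed by −0.59 (adjusted p = 0.0611) and Traf6 by −0.13 (adjusted p = 0.425). Peli1 then differed by −0.24 (adjusted p = 0.265) and Tollip by 0.17 (adjusted p = 0.282).

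In the other signalling lists the calls were single genes. Tbk1, the kinase of the TRIF branch below Tlr3 and Tlr4, rose by 0.39 (SE 0.08, adjusted p = 0.0315) as the 1 of 16 IKK and upstream kinase genes past the threshold, and its second probe set differed by 0.24 (SE 0.06). Birc2, also among those kinase pathway genes, differed by 0.43 (adjusted p = 0.0697), or 0.28 without ND 3. Commd1, which promotes the degradation of p65, rose by 0.48 (SE 0.09, adjusted p = 0.0278) as the 1 of 9 other NF-kappaB and IkappaB genes, with 0.51 in its second probe set, and Nfkbie, encoding IkappaB epsilon, differed by 0.33 (adjusted p = 0.0775). Both probe sets of Tbk1 and of Commd1 were higher in HFD. The brighter Tbk1 probe set, with a mean of 6.60 over the 7 arrays, lay below the median gene.

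Tnip2, a partner of A20, rose by 0.43 (SE 0.08, adjusted p = 0.0262), alone among 10 measured negative regulators, with 7.97, 7.94, 8.02 and 8.01 in HFD and 7.51, 7.62 and 7.55 in ND. The Tnip2 arrays of each diet lay close together and did not overlap between diets. Rnf11 of the same list differed by 0.26 (adjusted p = 0.264), or 0.17 without ND 3 and 0.41 without ND 2. In the TNF and IL-1 receptor arm 1 of 11 genes passed, the TNF receptor Tnfrsf1b, which rose by 0.74 (SE 0.14, adjusted p = 0.0253), with 9.09, 9.18, 9.02 and 9.32 in HFD and 8.56, 8.61 and 8.07 in ND. Its dimmer probe set differed by 0.082 (SE 0.12). Cd40, a receptor of the TNF family, differed by 0.31 (adjusted p = 0.0609), with 0.036 in its second probe set.

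Of 29 textbook NF-kappaB targets, 2 rose, Cxcl1 and Ptx3, and 0 fell, with a median difference of 0.028 over the list. That is 6.9% of the list past the threshold, near the 5.35% of all genes. In mean log2 value 14 of the 29 targets lay below the median gene, as did 8543 of all 17097 genes. At an unadjusted p under 0.05 there were 6 targets higher and 4 lower. Cxcl1, a neutrophil chemokine, was at 8.79, 8.52, 8.52 and 8.90 in HFD and 7.77, 7.92 and 8.02 in ND, and Ptx3, a secreted pattern recognition protein, at 7.23, 7.75, 7.72 and 7.96 in HFD and 6.80, 6.97 and 6.47 in ND. Both were without overlap between the diets, though the dimmer Ptx3 probe set differed by 0.0058. The excluded ND 4 was at 8.23 for Ptx3, above every HFD array, and with it the Ptx3 difference was 0.55 (adjusted p = 0.421) in place of 0.92. In the other direction and chosen after their values were seen, the cytokine gene Il6 was at 9.74, 9.80, 10.01 and 9.82 in HFD and 10.04, 10.38 and 10.29 in ND, a difference of −0.39 (adjusted p = 0.0551), and the monocyte chemokine gene Ccl2 differed by −0.24 (adjusted p = 0.177). All HFD arrays lay below ND for both Il6 and Ccl2, the only 2 of the 29 targets that were lower without overlap. In all 6 targets, Cxcl1 and Ptx3 among them, were higher without overlap. Of all genes 9.95% were higher without overlap, and 17.9% did not overlap in either direction. Of 8 genes listed for interferon regulation 1 passed, the RNA sensor gene Ddx58, which fell by 0.46 (SE 0.11, adjusted p = 0.0385). Its dimmer probe sets differed by −0.11 and −0.22, and the mean of the 3 by −0.26 (adjusted p = 0.152). Irf1 of the same list differed by 0.11 (adjusted p = 0.361). None of 14 other Toll-like receptors and co-receptors passed, and 7 of the 14 lay below the median gene. At an unadjusted p under 0.05 there was 1, the lipopolysaccharide carrier Lbp (−0.37, adjusted p = 0.192, and −0.15 without ND 3). Tlr9 differed by −0.24 (adjusted p = 0.243). None of 8 genes for endogenous receptor ligands passed, with 2 at an unadjusted p under 0.05, biglycan (Bgn, −0.17, adjusted p = 0.137) and Hmgb1 (−0.27, adjusted p = 0.148).

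**Figure D4:**
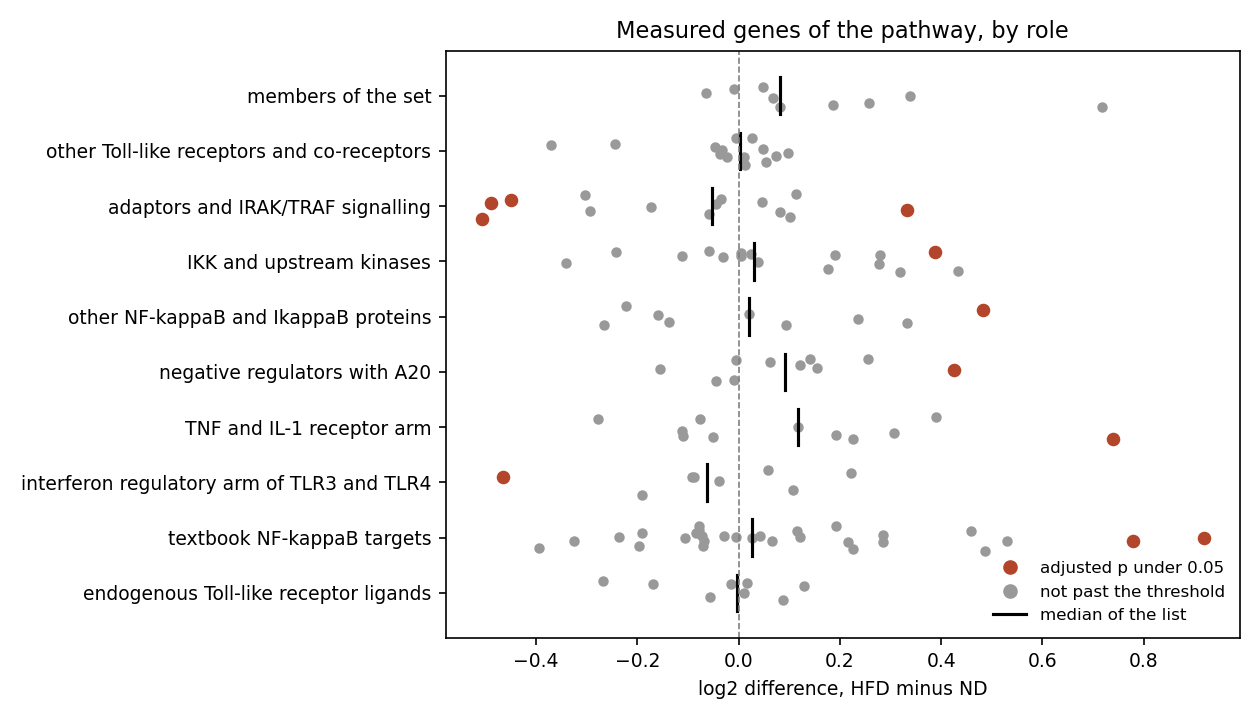
Log2 difference, HFD minus ND (horizontal axis), of every measured gene, by list, with genes past the threshold in red and the median of each list as a line. The 11 red points lie on both sides of 0, and none is a member of the set.

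**Figure D5:**
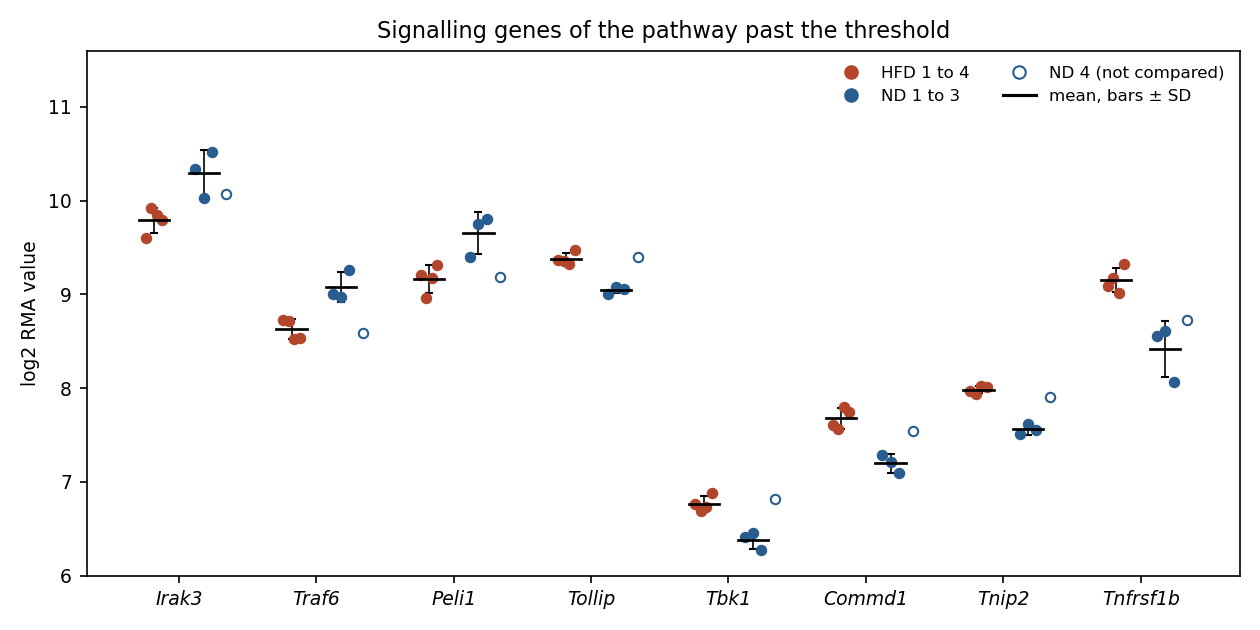
Log2 RMA value (vertical axis) in every array of the 8 signalling genes past the threshold, HFD left of ND, with the mean as a line and the SD as bars. HFD lies below ND for Irak3, Traf6 and Peli1 and above it for Tollip, Tbk1, Commd1, Tnip2 and Tnfrsf1b. ND 4 is drawn open.

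Several measures of the samples are set beside these results. ND 4 was closer to the HFD mean than to the ND mean for 4 of 9 members, beside 60.8% of all genes, and for 9 of the 11 pathway genes past the threshold (81.8%), beside 82.3% of all genes past it. The control probe sets at the 3′ end of Gapdh and Actb minus those at the 5′ end gave a mean difference without overlap. It was −0.44 to −0.375 in HFD and −0.34 to −0.18 in ND 1 to 3. The excluded ND 4 was at −0.37, next to HFD 3 at −0.375. With this 3′ minus 5′ measure as a covariate 0 of all 17097 genes passed. Tlr3 was then at 0.093 (SE 0.18), Rela at 0.14 (SE 0.15) and Tnfaip3 at 0.49 (SE 0.44). Since this measure itself separated the diets among the arrays compared, it and diet cannot be told apart in that fit. The 11 measured of 12 keratinocyte markers were all positive (median 0.47, 0 past the threshold), and 4 of the 11 lay below the median gene. Their mean log2 level was 6.63 to 8.08 in HFD and 6.52 to 7.12 in ND. With that mean as a covariate 19 of all genes passed, none of them a member or pathway gene, and Tlr3 differed by 0.21, Rela by 0.27 and Tnfaip3 by 0.95. Of 10 macrophage markers 0 passed and 8 lay below the median gene, with mean levels of 5.68 to 5.80 in HFD and 5.73 to 5.77 in ND. Cd34 of the sort was at 12.10 in HFD and 12.08 in ND, and Pdgfra at 6.27 in HFD and 5.92 in ND. Ptprc, the gene of CD45, was at 4.03 in HFD and 4.08 in ND. By mean over the 7 arrays Pdgfra, at 6.12, lay below the median gene of 6.77. Pecam1, the gene of CD31, which was sorted against, lay above it at 6.92. The other genes sorted against lay below it, Cd24a at 5.73, Epcam at 5.25 and Kit, the gene of CD117, at 4.25. Among the 8 sort and fibroblast genes 1 passed, Lum, a collagen-binding proteoglycan of fibroblasts. It fell by 0.34 (SE 0.07, adjusted p = 0.0359) to 12.34 in HFD, against 12.67 in ND. Without overlap, 3 of the 8 were lower in HFD (Lum, Dcn and Col1a2) and 1 was higher (Pdgfra). Of all 17097 genes, 1366 were lower and 1702 higher without overlap. Dcn differed by −0.063 (adjusted p = 0.408) and Col1a2 by −0.19 (adjusted p = 0.267). The part of these fibroblast genes in the results was not tested.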

How the data were processed

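The deposited table holds log2 values of 45141 probe sets, made by the authors with RMA and the affy package, per the submitters' processing notes; versions and settings are not given in the sources used here. Between the 8 arrays no quartile differed by more than 0.04, so the values were used as deposited, and a change in total RNA would not show. Depth has no counterpart on arrays. Probe sets naming 1 gene symbol (28898) were used, with symbols updated by Entrez identifier for 28689. Each gene was represented by its brightest probe set over the 7 arrays compared, giving 17097 genes. The 9 measured members have 12 probe sets.

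HFD 1 to 4 were compared with ND 1 to 3 in limma 3.58.1 under R 4.3.3 (lmFit, eBayes with trend), with Benjamini-Hochberg adjustment over all genes. Adjusted p-values come from this fit, and unadjusted p-values of other probe sets from a fit over all named probe sets. The fit was tested on simulated data, where it recovered 61.8% of log2 differences of 0.5 and 95% of differences of 1. Of its calls there, 4.8% were false. Differences under 0.5, such as those of Rela and Tlr3, were not simulated. The simulated noise was drawn for each gene alone, without a shift shared by the genes of an array. Whether the simulated shares hold where arrays shift as a whole was not tested. The members and lists were chosen with earlier results of these data known. Named were all members, every pathway gene past the threshold and the 2 with the smallest p in each list, the 3 genes nearest to the member with the smallest p, and genes of the sort; others are marked as chosen after their values were seen. Of the marker lists, the T cell, mast cell, endothelial, adipocyte and pericyte lists had 0 genes past the threshold. Replicate numbers did not pair the arrays. Promoters are RefSeq windows of GRCm38.p6. Figures were drawn with matplotlib 3.10.9.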

Additional observations from a re-analysis of the deposited data

Results flagged for a closer look

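Among the 132 genes looked at in the 4 HFD arrays, 5 had 1 array far from the others by Dixon's test, where chance flags about 1 in 20 groups, and 0 of the 5 are members. Of the genes named here, Bgn was at 12.34 in HFD 1 and at 12.18 to 12.20 in the other HFD arrays. Hmgb1 was at 10.29 in HFD 1 and at 10.04 to 10.08 in the others.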

How the results depend on the processing

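Over 19 other settings the members past the threshold numbered 0 in all but one, leaving out HFD 2, where Tnfaip3 passed (0 to 1 when single arrays were left out), and 2 passed at an adjusted p under 0.1 (Rela and Tlr3). The 11 other pathway genes became 0 with all 8 arrays, the replicate block, the 3′ minus 5′ covariate or the keratinocyte covariate, 4 with the mean of probe sets, 0 to 10 when single arrays were left out and 19 at an adjusted p under 0.1. Over all genes the count of 914 became 6 with all 8 arrays, 1 with the block and 400 with the mean of probe sets. It was 6 to 1072 without single arrays. Same-numbered arrays did not deviate together (correlations of −0.18, −0.29 and −0.05), so the block pairs arrays that share only a number. Of 171 values of members, 161 kept sign and side of the threshold, 1 passed and 9 changed sign, all of differences under 0.1. These were Relb without HFD 1 or ND 1 (−0.027 to 0.135 over the single arrays left out), Nfkbia with the 3′ minus 5′ covariate (0.011), Tlr2 without ND 3 (−0.015 to 0.19) or with that covariate (−0.053), and Myd88 without HFD 1 or ND 3 (−0.040 to 0.040), with array weights (0.011) or with that covariate (0.076). With it Lbp (0.17), Rnf11 (−0.094) and Ly96 (0.043) also changed sign, as did Cd14 (0.0081) and Ly96 (0.063) with the keratinocyte covariate, and Cd14 without ND 2 (−0.065 to 0.020). The cause was not tested.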

Other observations

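Genes of the IkappaB family differed in both directions without passing the threshold, as seen after the values were known. Nfkbie (0.33, adjusted p = 0.0775) and Nfkbiz (0.24, adjusted p = 0.177) were higher in HFD by their main probe sets, and Bcl3 (−0.27, adjusted p = 0.105) and Nfkbib (−0.22, adjusted p = 0.184) were lower. Bcl3 was at 9.63, 9.56, 9.60 and 9.52 in HFD and 9.69, 9.88 and 9.96 in ND, without overlap. A second bright probe set of Nfkbiz differed by 0.017, its dimmer one by −0.16, and the dimmer one of Nfkbie by 0.041. The stress gene Gadd45b, an NF-kappaB target, was at 11.88, 11.87, 12.05 and 12.06 in HFD and 11.71, 11.74 and 11.59 in ND, a difference of 0.29 (SE 0.07, adjusted p = 0.0508), close to the threshold as was Il6 of the same list in the other direction. Ticam1, the adaptor TRIF of Tlr3, differed by −0.29 (adjusted p = 0.0815) and was dim, with a mean of 5.72 over the 7 arrays. All its HFD arrays lay below ND, but only just, with HFD 1 at 5.76 and ND 1 at 5.77. The excluded ND 4 was at 5.76. Of all genes 17.9% did not overlap in either direction. Tab2, a partner of TAK1, differed by −0.34 (adjusted p = 0.0773), with −0.20 in its second probe set and −0.23 in the brighter one without ND 3.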
